A study of Saccharomyces cerevisiae with 6 samples.

Results

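The ATG genes of Saccharomyces cerevisiae encode the proteins that carry out autophagy, and 36 of them, between ATG1 and ATG42 in number and with VPS30 as ATG6, are described here. They were chosen by locus identifier, and all 36 were found among the 10239 loci of the table, of which 6558 are protein-coding. All 36 also passed the filter on low counts, which left 7971 loci and 5873 protein-coding loci for the test.

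RNA was sequenced from colony biofilms of BR-F, a wild diploid strain, that were 3 days old and had grown at 28 °C on medium with 3% glycerol, 1% yeast extract and 0.3% agar. Aerial cells, which stood above a membrane laid on the agar, were compared with root cells, which had grown through it into the agar, in 3 independent biological replicates of each, and both cell types share strain, medium, age and the absence of any added agent. The 6 libraries held between 13764726 and 17095539 counts. Each sample pooled the cells of many colonies, the root pellets kept traces of agar, and the membrane's pore size is given differently in the sample labels and in the study's methods. The defining genes of both cell types were present: all 5 aerial markers (RGI2, SIP18, HSP26, HSP104, CTT1) rose in aerial cells and all 5 root markers (ARG1, HXK2, GDH1, AGP1, SHM2) in root cells, though these lists were chosen with the study's own results known.

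In autophagy a cell encloses part of its own cytoplasm in a double membrane, the autophagosome, and delivers it to the vacuole, where it is degraded and its building blocks are returned to the cytosol. The Atg1 kinase complex starts the process, the Atg14-containing PI3-kinase complex and the vesicles that carry Atg9 build the membrane, and a pair of ubiquitin-like systems, of Atg8 and of Atg12, attach Atg8 to lipid so that the membrane expands and binds cargo. Receptors select mitochondria, peroxisomes, parts of the endoplasmic reticulum or vacuolar enzymes as cargo. Several of these genes, ATG8 among them, are known to be repressed in rich medium and induced on starvation in yeast.

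Sequence upstream of the genes was read from the RefSeq R64 assembly, the build used by the authors, which is of the laboratory strain S288C and not of BR-F. The windows that follow show the 200 bases from 250 to 51 bases before the start codon of the gene with the largest difference between the cell types (ATG34), of the most abundant ATG transcript of aerial cells per length (ATG8), and of the only ATG gene that rose in root cells (ATG5). Capitals mark matches to the motifs searched, on either strand. The core of the URS1 site, which the repressor Ume6 binds, reads GGCGGC, or GCCGCC on the opposite strand. The site of the regulators Gln3 and Gat1 was searched as GATAAG or its reverse complement, CTTATC. The stress response element, bound by Msn2 and Msn4, reads AGGGG, or CCCCT on the opposite strand. Each window is written 5′ to 3′ on the strand of its gene.
ATG34 (chrXV:165464-165663, plus strand): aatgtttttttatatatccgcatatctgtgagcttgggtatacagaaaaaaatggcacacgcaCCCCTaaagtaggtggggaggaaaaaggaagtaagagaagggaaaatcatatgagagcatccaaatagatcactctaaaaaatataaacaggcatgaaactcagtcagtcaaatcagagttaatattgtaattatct
ATG8 (chrII:80782-80981, minus strand): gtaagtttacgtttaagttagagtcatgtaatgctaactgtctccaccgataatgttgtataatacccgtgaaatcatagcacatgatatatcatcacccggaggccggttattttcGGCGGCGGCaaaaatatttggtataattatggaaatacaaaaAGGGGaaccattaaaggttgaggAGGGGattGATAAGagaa
ATG5 (chrXVI:271060-271259, plus strand): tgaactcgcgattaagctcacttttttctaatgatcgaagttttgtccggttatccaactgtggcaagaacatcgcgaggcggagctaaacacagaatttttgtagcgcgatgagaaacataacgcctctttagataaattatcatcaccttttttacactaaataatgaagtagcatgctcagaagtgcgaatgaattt
The ATG8 window held matches to all 3 motifs, the ATG34 window 1 stress response element, and the ATG5 window none. In the whole window from 250 bases before to 50 after the start codon, the URS1 core was found at 3 of 36 ATG genes (8.33%) and at 5.13% of all 6001 promoters. Their sites, with 12 bases on either side and the core in capitals, are shown because they are the only ATG genes of the 36 with this core in the window.
ATG8 (chrII:80847-80876): ccggttattttcGGCGGCggcaaaaatatt
ATG19 (chrXV:168672-168701): cgaggtaattgcGGCGGCacttgcttcagt
ATG42 (chrII:515511-515540): aaaaatggccgaGGCGGCgctagcattcta
At ATG8 a second match overlaps the one shown, so that the core runs on for 3 more bases. GATAAG was found at 10 of the 36 genes (27.8%) against 14.7% of all promoters, and ATG32 held 3 matches. AGGGG was found at 9 of the 36 (25.0%) against 21.6%, and ATG8 and ATG19 held all 3 motifs. These matches describe the reference sequence only and are not evidence of binding, and none of the 3 motifs contains another.

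ATG transcripts were more abundant in aerial cells: 34 of the 36 genes had a higher fitted level there, against 51.6% of protein-coding loci tested, and 2 had a higher one in root cells, against 48.4%. Levels are given as CPM, counts scaled to a common library size (counts per 1e6) after TMM adjustment. They are therefore relative to the other RNA of a library. According to the study, its method could not compare the amount of RNA between root and aerial cells. Log2 fold changes set root cells over aerial cells, and negative ones therefore mark genes that were higher in aerial cells. With edgeR's quasi-likelihood test, 14 of the 36 (38.9%) rose in aerial cells at an adjusted p below 0.05 and at least 2-fold, the rule under which a gene is called changed. Of all loci tested 9.20% were called in that direction, and of protein-coding loci 9.13%. Without the fold cutoff 29 (80.6%) had a higher level in aerial cells at an adjusted p below 0.05, against 16.9% of protein-coding loci. This count fell to 13 without root replicate 1, 16 without root replicate 2 and 13 without root replicate 3, when 7.47%, 8.18% and 7.87% of protein-coding loci passed. With any 1 library left out, the count of genes called at 2-fold lay between 10 and 15. In these fits 6.25% to 9.98% of protein-coding loci were called in aerial cells. No ATG gene was called in root cells, where 12.1% of protein-coding loci were, and 1 rose there without the fold cutoff, against 18.2%.

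The 3 aerial libraries lay wholly above the 3 root libraries at 29 of the 36 genes (80.6%), against 24.9% of protein-coding loci and 23.4% of all loci tested. They lay wholly below them at 1 gene, against 27.7% and 25.1%. The median log2 fold change of the 36 was -0.85, with a range from -1.71 to 0.63, and that of all protein-coding loci was -0.03. Summed over the 36 genes, the level was 6229, 5990 and 6133 CPM in aerial replicates 1, 2 and 3 and 3452, 3200 and 3489 CPM in the root replicates. The sums of the cell types did not overlap, and those of the 3 aerial libraries lay close together. In such bulk samples, fewer cells that express a gene and less RNA per cell cannot be told apart.

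**Figure D1:**
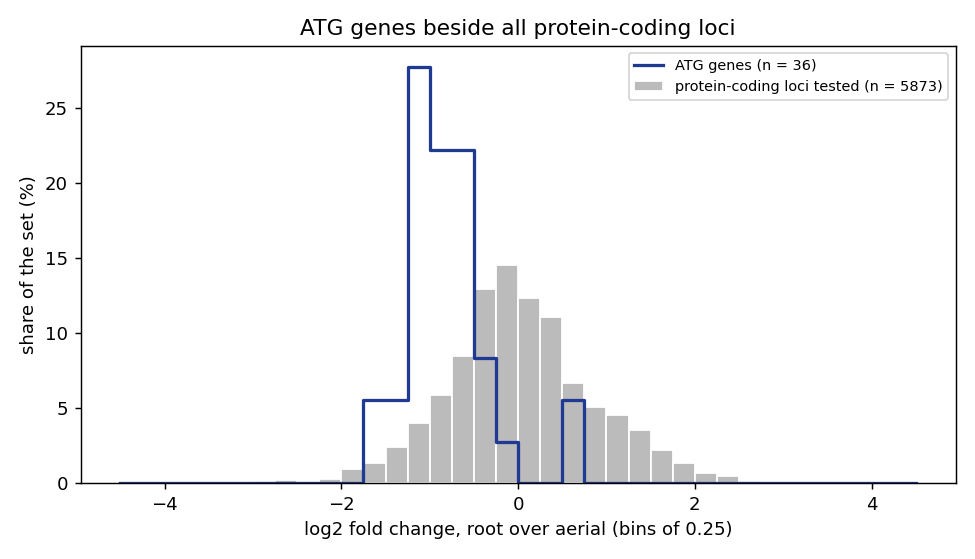
Share of each set (%) by log2 fold change of root over aerial cells, in bins of 0.25, for the 5873 protein-coding loci tested (grey bars) and for the 36 ATG genes (blue line). The ATG genes are centred at a median of -0.85 and the protein-coding loci at -0.03, and 2 ATG genes lie above 0.

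**Figure D2:**
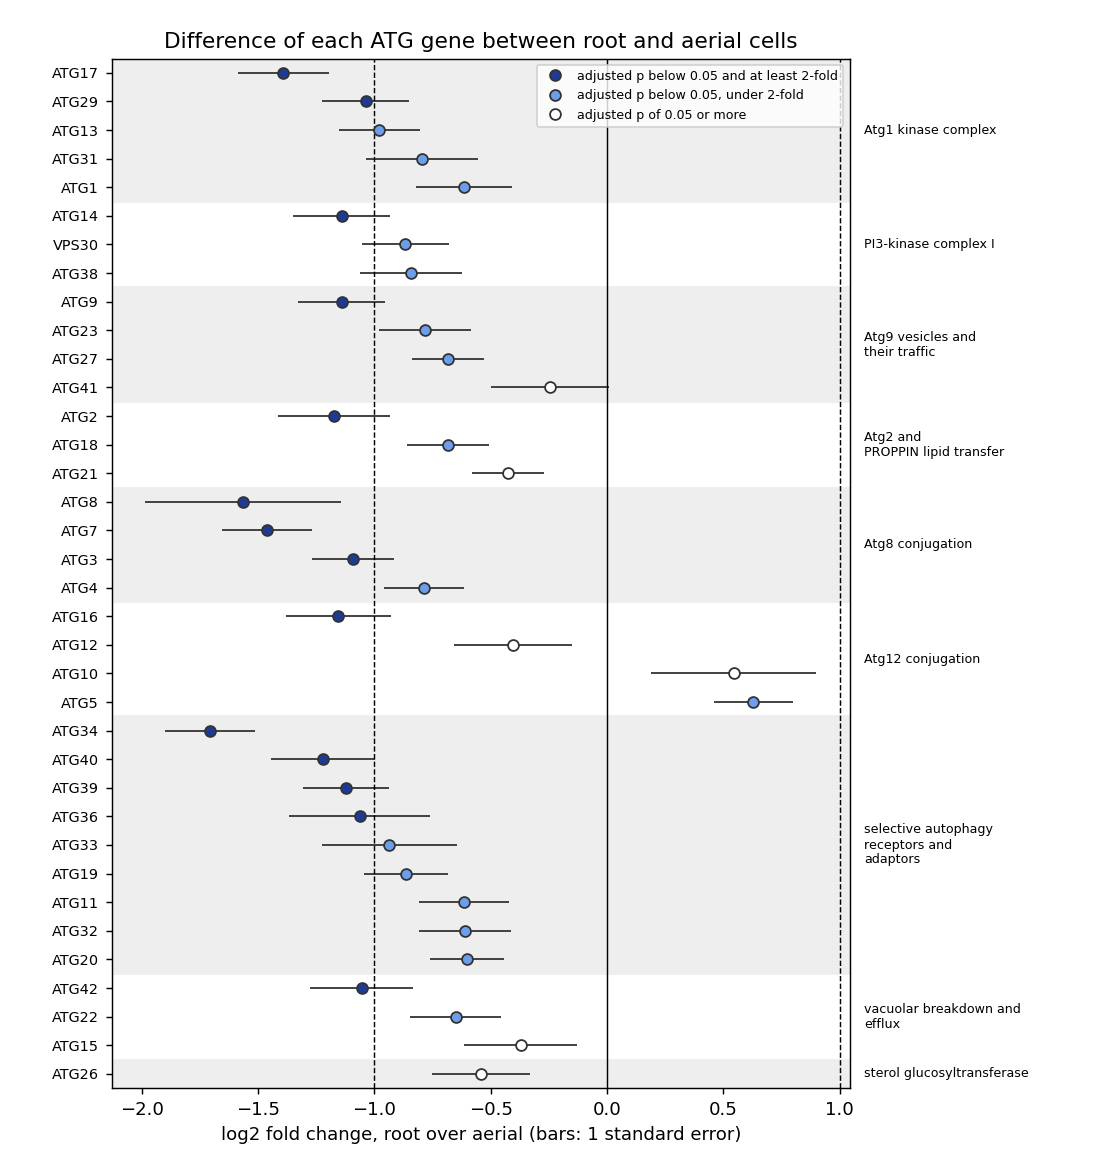
Log2 fold change of root over aerial cells for each of the 36 ATG genes, grouped by role, with bars of 1 standard error and dashed lines at 2-fold in either direction. Dark points mark the 14 genes called, all to the left of the line for 2-fold higher in aerial cells, light points the 16 genes past the adjusted threshold at a smaller fold, among them ATG5 on the right, and open points the other 6.

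All 5 genes of the Atg1 kinase complex rose in aerial cells, by 1.53-fold to 2.62-fold, and at each of them every aerial library exceeded every root library. ATG17 (YLR423C, chrXII:971917-973170, minus strand) encodes the scaffold on which the other subunits assemble. It stood at 25.7, 32.8 and 26.8 CPM in aerial replicates 1, 2 and 3 and at 10.2, 11.6 and 10.7 CPM in root replicates 1, 2 and 3 (log2 fold change -1.39 ± 0.20, SE, adjusted p = 0.00154). This was the largest difference within the complex. ATG29 (YPL166W, chrXVI:237338-237979, plus strand), whose product joins Atg17 and Atg31 in a stable subcomplex, stood at 37.1, 31.5 and 31.9 CPM in aerial and 15.2, 18.5 and 15.2 CPM in root libraries (log2 fold change -1.04 ± 0.19, SE, adjusted p = 0.00428). The end of ATG29 overlaps SET6 on the opposite strand by 24 bases, and the counts were made by strand. ATG29 kept its adjusted threshold throughout but lay just under 2-fold without aerial replicate 1, root replicate 1 or root replicate 3 (-0.99 to -0.94).

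The other 3 subunits passed the adjusted threshold below the fold cutoff. ATG13, which encodes the regulatory subunit that responds to the TORC1 kinase, was 1.97-fold higher in aerial cells (adjusted p = 0.00403), ATG31 1.73-fold (adjusted p = 0.0339) and ATG1 1.53-fold (adjusted p = 0.0486). ATG1, the kinase gene itself, had the highest CPM of the 36 genes in all 6 libraries before any allowance for length, at 835, 878 and 738 CPM in aerial and 529, 487 and 586 CPM in root replicates. The kinase gene thus had the highest counts and the smallest fitted fold of the complex. ATG1 missed the threshold when any library but aerial replicate 3 was left out (adjusted p of 0.0513 to 0.206), and ATG31 without aerial replicate 3 or any root library (up to 0.177).

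The 3 genes of the PI3-kinase complex that is specific to autophagy also rose, and none of them overlapped between the cell types. ATG14 (YBR128C, chrII:493081-494115, minus strand), which targets the complex to the site where the autophagosome forms, stood at 32.4, 45.2 and 47.6 CPM in aerial and 17.0, 19.1 and 20.7 CPM in root libraries (log2 fold change -1.14 ± 0.21, SE, adjusted p = 0.00446). VPS30, the yeast counterpart of mammalian Beclin 1, was 1.82-fold higher in aerial cells (adjusted p = 0.00876), and ATG38, which joins Vps34 and Vps15 to the other subunits, 1.79-fold (adjusted p = 0.0193). The catalytic and regulatory subunits carry no ATG name and were looked up separately. VPS15, the regulatory kinase of the complex, rose 2.32-fold (log2 fold change -1.21 ± 0.22, SE, adjusted p = 0.00400), with 209.9, 149 and 134 CPM in aerial and 64.4, 79.9 and 68.6 CPM in root libraries. VPS34, the lipid kinase, rose 1.43-fold (adjusted p = 0.0434). All 5 subunits therefore had a higher level in aerial cells past the adjusted threshold, 2 of them at 2-fold or more. VPS30 missed it without root replicate 1 or 3 (adjusted p up to 0.0616), and ATG38 without aerial replicate 3 or any root library (up to 0.110).

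ATG9 (YDL149W, chrIV:184925-187918, plus strand) encodes the membrane protein of the vesicles that seed the autophagosome. It stood at 277, 236 and 215 CPM in aerial and 103, 119 and 108 CPM in root libraries (log2 fold change -1.14 ± 0.19, SE, adjusted p = 0.00275), and the libraries of the cell types were far apart. ATG23 and ATG27, which move Atg9 vesicles out of the Golgi, were 1.72-fold (adjusted p = 0.0176) and 1.61-fold (adjusted p = 0.0108) higher in aerial cells, and both missed the threshold when any single root library was left out (adjusted p up to 0.0900 and 0.0721). ATG41, whose product binds Atg9, stood apart from them, at 461, 354 and 390.3 CPM in aerial and 426, 235 and 356 CPM in root replicates (log2 fold change -0.25 ± 0.25, SE, adjusted p = 0.490). Its ranges overlapped, with root replicate 1 above 2 of the 3 aerial libraries. Without root replicate 2, the lowest library, its log2 fold change turned to 0.0078, so no direction can be given for it.

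ATG2 (YNL242W, chrXIV:191324-196102, plus strand), which encodes the protein that transfers lipid into the growing membrane, had 357, 217 and 215 CPM in aerial and 103, 119 and 127 CPM in root libraries (log2 fold change -1.17 ± 0.24, SE, adjusted p = 0.00767). Aerial replicate 1 was well above the other aerial libraries, and even the lowest aerial library exceeded every root library. Without that replicate the gene lay under 2-fold (-0.89). ATG18, whose product binds PI3P and works with Atg2, was 1.61-fold higher in aerial cells (adjusted p = 0.0187, and up to 0.105 when a root library was left out). ATG21, a related PI3P-binding protein that helps Atg8 lipidation, did not pass the adjusted threshold (log2 fold change -0.43 ± 0.15, SE, adjusted p = 0.0633), although its libraries did not overlap.

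The Atg8 conjugation system had the most negative median log2 fold change of any role, at -1.28, and all 4 of its genes rose in aerial cells. ATG8 (YBL078C, chrII:80378-80731, minus strand) encodes the ubiquitin-like protein that coats the autophagosome and is itself consumed in the vacuole. It stood at 213, 671 and 671 CPM in aerial and 219.5, 125 and 182 CPM in root replicates. Aerial replicates 2 and 3 were far above the highest root library, while aerial replicate 1 lay below root replicate 1, so that the ranges overlapped. The fitted difference was 2.96-fold (log2 fold change -1.56 ± 0.42, SE, adjusted p = 0.0216), and its standard error was the largest of the 36. The call was lost without aerial replicate 3 and when any single root library was left out, with an adjusted p of up to 0.102.

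The enzymes of Atg8 conjugation were steadier between libraries. ATG7 (YHR171W, chrVIII:445713-447605, plus strand), the activating enzyme shared by Atg8 and Atg12, stood at 162, 111 and 127 CPM in aerial and 45.3, 51.4 and 48.5 CPM in root libraries (log2 fold change -1.46 ± 0.19, SE, adjusted p = 0.00124). ATG3 (YNR007C, chrXIV:639182-640114, minus strand), the conjugating enzyme of Atg8, stood at 52.4, 70.0 and 65.3 CPM in aerial and 29.4, 28.6 and 30.2 CPM in root libraries (log2 fold change -1.09 ± 0.18, SE, adjusted p = 0.00267). For both, every aerial library exceeded every root library. ATG4, the protease that trims Atg8 and later releases it from lipid, was 1.73-fold higher in aerial cells (adjusted p = 0.00936) but missed the threshold without root replicate 1 or 3 (adjusted p up to 0.0620).

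The Atg12 system, counted here without the shared ATG7, was the only role without a common direction. It had 1 gene up in aerial cells, 1 up in root cells and 2 that did not pass. The median log2 fold change was 0.07, which lies between the values of ATG12 and ATG10, the 2 that did not pass. The products of the system form the Atg12-Atg5-Atg16 complex, which directs Atg8 to lipid. ATG16 (YMR159C, chrXIII:574476-574928, minus strand), which dimerises the complex, had 10.4, 14.8 and 15.5 CPM in aerial and 5.90, 5.90 and 6.52 CPM in root libraries (log2 fold change -1.15 ± 0.23, SE, adjusted p = 0.00606). ATG5 (YPL149W, chrXVI:271310-272194, plus strand), the acceptor to which Atg12 is joined, had 40.7, 38.0 and 44.9 CPM in aerial and 66.0, 55.8 and 69.1 CPM in root libraries (log2 fold change 0.63 ± 0.17, SE, adjusted p = 0.0219). The pair thus moved in opposite directions, each without overlap between the cell types. ATG5 was 1.54-fold higher in root cells, under the fold cutoff, and it missed the adjusted threshold with library sizes alone, without root replicate 1 (adjusted p = 0.0985) and without root replicate 3.

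ATG12, the ubiquitin-like protein of the system, had 13.9, 25.4 and 25.2 CPM in aerial and 16.9, 16.6 and 15.3 CPM in root libraries (log2 fold change -0.40 ± 0.26, SE, adjusted p = 0.256), with aerial replicate 1 below all 3 root libraries. ATG10, its conjugating enzyme, was the least abundant of the 36, with 22, 26 and 47 raw counts in aerial and 55, 35 and 52 in root replicates (log2 fold change 0.54 ± 0.35, SE, adjusted p = 0.272). Its ranges overlapped, and no direction can be given for it. Summed over the 4 genes, the level was 66.9, 79.6 and 88.6 CPM in aerial and 92.5, 80.4 and 94.3 CPM in root replicates.

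All 9 genes of cargo receptors and adaptors rose in aerial cells, 4 of them at least 2-fold, with a median of -0.94. ATG34 (YOL083W, chrXV:165714-166952, plus strand) encodes a receptor for alpha-mannosidase in starved cells. It had the largest difference of the 36, with 432, 335 and 401 CPM in aerial and 111, 127 and 119.6 CPM in root libraries (mean 389 ± 49.9 against 119 ± 7.70, SD, n = 3), 3.26-fold higher in aerial cells (log2 fold change -1.71 ± 0.19, SE, adjusted p = 0.000874). The lowest aerial library was well above the highest root library. It was called under all 14 alternatives.

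ATG39 and ATG40 encode the receptors for the nuclear envelope with the perinuclear endoplasmic reticulum and for the peripheral endoplasmic reticulum. ATG39 (YLR312C, chrXII:757637-758833, minus strand) stood at 519, 502 and 566 CPM in aerial and 232, 243 and 253 CPM in root libraries (log2 fold change -1.12 ± 0.19, SE, adjusted p = 0.00294). ATG40 (YOR152C, chrXV:617518-618288, minus strand) stood at 128, 104 and 176 CPM in aerial and 65.0, 52.2 and 57.7 CPM in root libraries (log2 fold change -1.22 ± 0.22, SE, adjusted p = 0.00452). Both were separated between the cell types, and the spread among aerial libraries was wider for ATG40, which lay just under 2-fold without aerial replicate 3.

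ATG36 (YJL185C, chrX:82095-82976, minus strand), the receptor for peroxisomes, had 93.6, 36.9 and 77.0 CPM in aerial and 34.0, 32.6 and 32.5 CPM in root libraries (log2 fold change -1.06 ± 0.30, SE, adjusted p = 0.0275). Its root libraries were nearly equal, and aerial replicate 2 was only just above the highest of them, so the separation is narrow. The call was lost without aerial replicate 1 or 3 and when any single root library was left out (adjusted p up to 0.105). With the replicate number as a block, ATG36 passed the adjusted threshold but lay under 2-fold. ATG33, which acts in the removal of mitochondria, had 228, 106 and 200.4 CPM in aerial and 113, 77.8 and 89.0 CPM in root libraries (log2 fold change -0.94 ± 0.29, SE, adjusted p = 0.0374), with aerial replicate 2 below root replicate 1. ATG32, the mitochondrial receptor, was 1.53-fold higher in aerial cells (adjusted p = 0.0437). ATG33 passed in no fit that lacked a library other than aerial replicate 2 (adjusted p up to 0.160), and ATG32 in none that lacked aerial replicate 3 or a root library (up to 0.182).

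ATG19, the receptor for aminopeptidase I and alpha-mannosidase in the cytoplasm-to-vacuole targeting (Cvt) pathway, had 221, 217 and 233 CPM in aerial and 119, 141 and 109 CPM in root libraries (log2 fold change -0.86 ± 0.18, SE, adjusted p = 0.00801). ATG11, the adaptor that ties receptors to the core machinery, was 1.53-fold higher in aerial cells (adjusted p = 0.0403), and ATG20, a sorting nexin of the same pathway, 1.52-fold (adjusted p = 0.0200). These 3 genes did not overlap between the cell types. Each missed the threshold without some root libraries, ATG19 without replicate 1 or 3 (adjusted p up to 0.0687), ATG20 without each of the 3 (up to 0.108) and ATG11 without each of the 3 or aerial replicate 1 (up to 0.161). Their fitted folds were all smaller than that of ATG34, a difference between genes that was tested only for ATG19, within libraries and as given further on.

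Among the genes that act in the vacuole, ATG42 (YBR139W, chrII:515664-517190, plus strand), a serine carboxypeptidase, had 391, 237 and 343 CPM in aerial and 158, 154 and 155 CPM in root libraries (log2 fold change -1.06 ± 0.22, SE, adjusted p = 0.00830). Every aerial library exceeded the root libraries, which were nearly equal, though the gene lay under 2-fold without aerial replicate 1 (-0.89) and just under 2-fold without root replicate 3. The coding sequence of ATG42 shares 67.5% identity with that of YMR297W over 545 bases, which is 35.7% of its length, and no ATG gene had a copy with at least 90% identity over at least 50% of its length. ATG22, which exports amino acids from the vacuole, was 1.57-fold higher in aerial cells (adjusted p = 0.0327) and missed the threshold when any library but aerial replicate 2 was left out (up to 0.151). ATG15, the lipase that opens autophagic bodies, did not pass (log2 fold change -0.37 ± 0.24, SE, adjusted p = 0.274). ATG26, placed in a role of its own, encodes a sterol glucosyltransferase known in Pichia pastoris for the removal of peroxisomes. It did not pass either (log2 fold change -0.54 ± 0.21, SE, adjusted p = 0.0785), although its libraries did not overlap between the cell types.

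**Figure D3:**
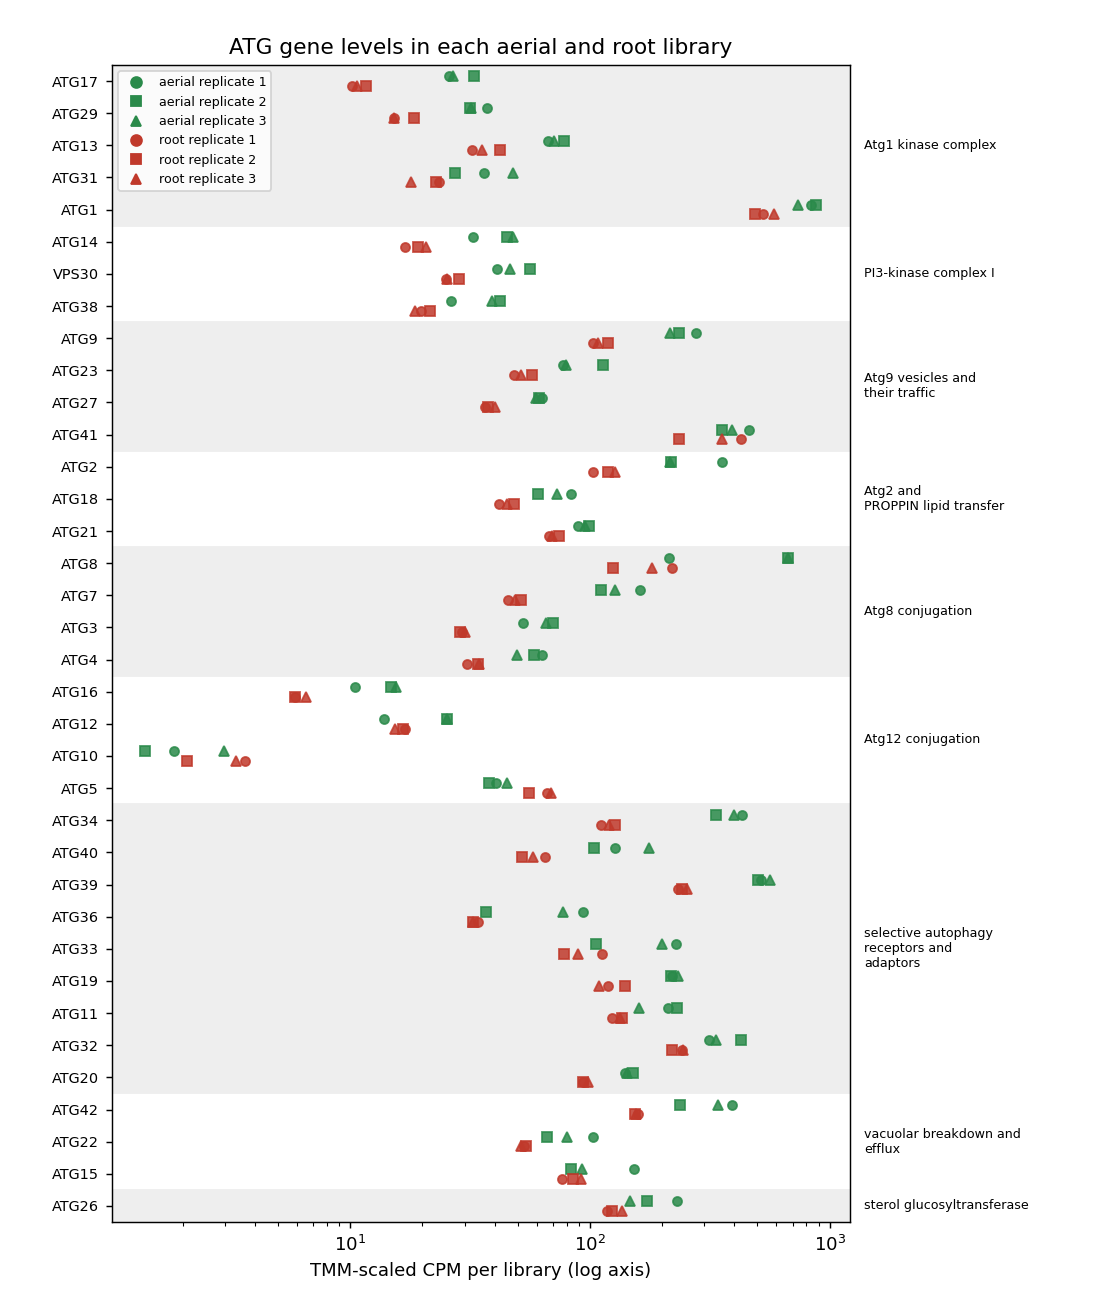
Level of each of the 36 ATG genes in every library, in TMM-scaled CPM on a log axis, grouped by role (aerial libraries in green, root libraries in red, the replicate number by the shape of the point). Green points lie to the right of red points for 29 genes without overlap, ATG5 shows the opposite order, and ATG8 shows aerial replicate 1 among the root libraries.

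Levels of different genes were compared as CPM per kb of coding length. In aerial cells ATG8 was highest at 1465 ± 746 CPM per kb (SD, n = 3), followed by ATG41 at 978 ± 132 and ATG39 at 442 ± 27.5. The ranges of ATG8 and ATG41 overlapped, and ATG39 was separate from its neighbours. In root cells ATG41 was first at 824 ± 236 CPM per kb and ATG8 next at 496 ± 134, again with overlapping ranges. ATG10 was lowest in both, at 4.10 ± 1.61 and 5.99 ± 1.64 CPM per kb, and ATG17 stood at 22.7 ± 3.05 and 8.64 ± 0.571. Neighbours in this order overlapped at 31 of 35 steps in aerial cells and at 24 of 35 in root cells, so that most single ranks are not resolved by 3 libraries.

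Ratios of 2 ATG transcripts within the same library do not depend on how libraries were scaled, and they were taken for 6 pairs of related genes or partners. ATG34 and ATG19, which encode receptors of related sequence and lie 1774 bases apart on the same strand of chromosome XV, had the largest difference in ratio of the 6 pairs. The ratio of ATG34 to ATG19 per kb was 1.97, 1.55 and 1.73 in aerial replicates and 0.942, 0.908 and 1.11 in root replicates. The log2 ratio was 0.80 ± 0.17 in aerial and -0.03 ± 0.15 in root cells (SD, n = 3; difference -0.83; exact two-sided permutation test, p = 0.1, adjusted p = 0.3 over the 6 pairs). The ratios did not overlap, but 3 libraries against 3 cannot give a p below 0.1.

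ATG17 to ATG13, scaffold to regulatory subunit of the Atg1 complex, was the other pair without overlap, with ratios of 0.680, 0.742 and 0.669 in aerial and 0.563, 0.491 and 0.533 in root replicates (log2 difference -0.40; exact permutation test, p = 0.1, adjusted p = 0.3). ATG8 to its protease ATG4 gave 14.1, 48.2 and 56.7 in aerial and 30.0, 15.4 and 22.1 in root replicates. These overlapped (log2 difference -0.64; exact permutation test, p = 0.4, adjusted p = 0.6). The log2 difference was -0.25 for ATG18 to ATG21 (exact permutation test, p = 0.4, adjusted p = 0.6), 0.28 for ATG32 to ATG33 (p = 0.6, adjusted p = 0.7) and 0.07 for ATG39 to ATG40 (p = 0.7, adjusted p = 0.7), all with overlapping ratios, and the sign turned for the last pair and for ATG32 to ATG33 when some single libraries were left out.

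**Figure D4:**
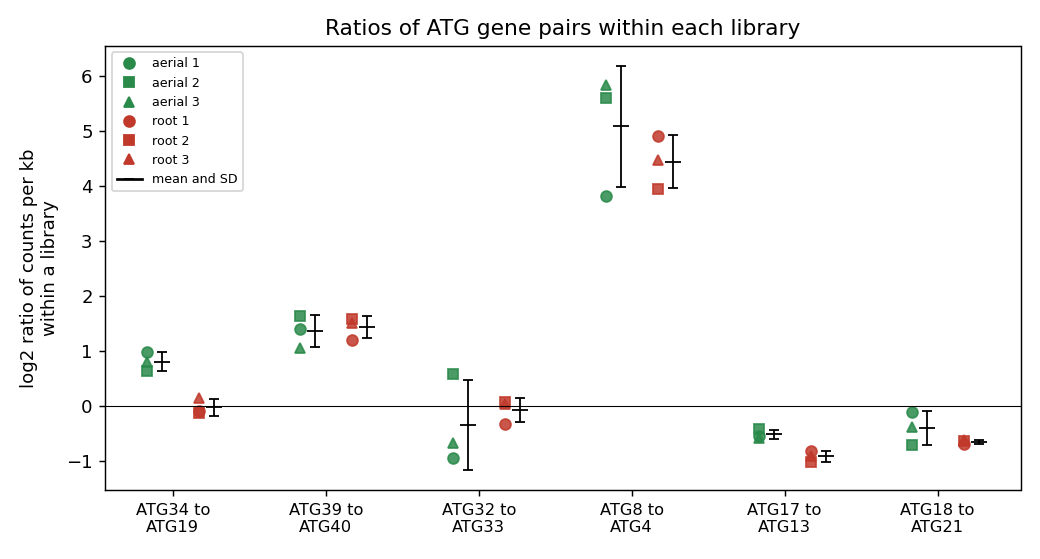
Log2 ratio of counts per kb of coding length for 6 pairs of ATG genes within each library (aerial in green, root in red, black bars for the mean and SD of 3 libraries). The ratios of ATG34 to ATG19 and of ATG17 to ATG13 do not overlap between the cell types, and the aerial ratios of ATG8 to ATG4 spread from 14.1 to 56.7 on the linear scale.

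ATG levels varied more among the aerial libraries than among the root libraries, as did protein-coding loci in general. The ratio of the highest to the lowest library of a gene had a median of 1.41 in aerial cells (1.05 to 3.14) and of 1.16 in root cells (1.03 to 1.82), and the aerial ratio was the larger at 29 of the 36 genes. Over all 5873 protein-coding loci tested, the medians were 1.57 and 1.18, and the aerial ratio was the larger at 86.1%. The ratio exceeded 1.5 at 13 of the 36 ATG genes in aerial cells and at 3 in root cells, against 57.5% and 11.4% of protein-coding loci. Of the 13, aerial replicate 1 was lowest at ATG8, ATG12 and ATG38, aerial replicate 2 at 8 genes (ATG10, ATG15, ATG22, ATG31, ATG33, ATG36, ATG40 and ATG42), and aerial replicate 3 at ATG2 and ATG26.

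Other transcripts also differed between the cell types, and their order among the aerial libraries was not that of the summed ATG level. All 13 genes of a list for meiosis and sporulation, which includes IME1, IME2, NDT80 and SPS4, rose in aerial cells, and their summed level was 5227, 16976 and 10482 CPM in aerial replicates and 3197, 2090 and 3785 CPM in root replicates, with no listed gene at 0. At 12 of the 13 every aerial library exceeded every root library, against 24.9% of protein-coding loci. This list too was chosen with earlier results of these data known. SPS4, the exception, made up most of these sums, with 2789, 13043 and 7172 CPM in aerial and 2393, 1436 and 2860.4 CPM in root replicates. Without it the other 12 genes summed to 2438, 3933 and 3310.3 CPM in aerial and 804, 654 and 925 CPM in root replicates. Aerial replicate 1 was the lowest aerial library at 11 of the 13 genes, while IME1 was highest there, at 515, 425 and 458 CPM in aerial replicates. Among the 36 ATG genes it was the lowest aerial library at 13, ATG8 among them, and the highest at 15. The 5 aerial markers summed to 17934, 9672 and 18491 CPM in aerial replicates and 3408, 3175 and 3069 CPM in root replicates, with aerial replicate 2 lowest. The 5 root markers summed to 1443, 1624 and 810 CPM in aerial and 9417, 8105 and 9082 CPM in root replicates, with no gene of either list at 0. The part of meiotic cells or of a mixture of cell states in the differences of the ATG genes was not tested.

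Of a list of 42 other genes that act with the ATG proteins, 5 (11.9%) were called in aerial cells and 0 in root cells, against the 9.13% and 12.1% of protein-coding loci given above. Without the fold cutoff 11 (26.2%) passed the adjusted threshold of edgeR's test in aerial cells and 0 in root cells, against 16.9% and 18.2% of protein-coding loci. The median log2 fold change of the list was -0.37, against -0.03. Besides VPS15, the genes called were KSP1, a kinase gene, at 712, 765 and 602 CPM in aerial and 259.9, 292 and 269 CPM in root libraries (log2 fold change -1.34 ± 0.20, SE, adjusted p = 0.00201), SNX41, a sorting nexin gene (log2 fold change -1.13 ± 0.16, SE, adjusted p = 0.00169), AMS1, the alpha-mannosidase that Atg19 and Atg34 carry to the vacuole (log2 fold change -1.14 ± 0.22, SE, adjusted p = 0.00577), and MON1, a subunit of the exchange factor of the vacuolar Rab protein (log2 fold change -1.04 ± 0.19, SE, adjusted p = 0.00410).

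AMS1 stood at 1160, 953 and 895 CPM in aerial and 399.7, 512 and 449 CPM in root libraries, without overlap. The other cargo enzymes of the Cvt pathway did not pass the threshold: APE1, aminopeptidase I, had 85.0, 80.3 and 97.3 CPM in aerial and 72.8, 70.0 and 64.2 CPM in root libraries (log2 fold change -0.34 ± 0.16, SE, adjusted p = 0.137), and APE4 had 193, 129.6 and 143 and 147, 149 and 150.0 CPM (log2 fold change -0.07 ± 0.20, SE, adjusted p = 0.829). Of the 3 cargo genes, AMS1 was thus the only one past the threshold, though every aerial library exceeded every root library at APE1 too. Of 8 genes for TORC1 and for kinases upstream of Atg1, only KSP1 (12.5%) passed in aerial cells, against 16.9% of protein-coding loci. Of 11 transcriptional regulators of ATG genes, 3 (27.3%) passed, all higher in aerial cells and none at 2-fold, against 16.9% of protein-coding loci. They were UME6 (1.62-fold, adjusted p = 0.0126), RIM15 (1.67-fold, adjusted p = 0.0333) and MSN2 (1.57-fold, adjusted p = 0.0243). At 5 of the 11 every aerial library exceeded every root library (45.5%, against 24.9%). GAT1 and RPD3 showed the opposite order, found at 27.7% of protein-coding loci. They did not pass (log2 fold change 0.51 ± 0.21 and 0.38 ± 0.16, SE, adjusted p = 0.0998 and 0.0997). Motifs bound by the products of UME6, MSN2, MSN4, GAT1 and GLN3 were those searched for above. Of these, MSN4 (log2 fold change -0.38 ± 0.19, SE, adjusted p = 0.167) and GLN3 (-0.001 ± 0.18, SE, adjusted p = 0.997) did not pass either. No lncRNA locus was named after any of the 36 genes.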

How the data were processed

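Stranded libraries of rRNA-depleted RNA were mapped by the authors to SacCer3 (R64) with TopHat2 2.0.14. Per locus and by strand, featureCounts then gave the deposited counts, which are neither normalized nor filtered. The submitters' processing notes also list DESeq2 1.12.3. All value columns were used (0 left out). A line naming no locus, at most 3.64e-05% of a library, was left out. Library totals ran from 13764726 to 17095539 counts, so that 1 count was worth 0.0537 to 0.0835 CPM, and no molecular identifiers are described.

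The tests ran in edgeR 4.0.16 and, as an alternative, DESeq2 1.42.0 (limma 3.58.1, R 4.3.3). Tables came from pandas 2.3.3, numpy 2.4.6 and scipy 1.17.1 under Python 3.11.15, and plots from matplotlib 3.10.9. After filterByExpr, loci were scaled by TMM (factors from 0.871 to 1.09) and tested for root against aerial cells with the quasi-likelihood F test (common dispersion 0.0574). Adjusted p-values are edgeR's by the Benjamini-Hochberg method over the 7971 loci that passed, and the standard error is the log2 fold change divided by the square root of F. Pair ratios used a prior count of 0.5 and an exact permutation test. The 36 identifiers and 5914 of the 6558 protein-coding ones matched R64, from which names, positions, coding lengths and promoters were taken. Copies were searched with BLAST 2.17.0.

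Members, lists, pairs and motifs were chosen with earlier results of these data known. Values in every library are given for genes called, for the genes changed most in the other direction, for pair members where needed and for the highest and lowest per kb, and other members by range. Some further members and regulators were named after their values were seen. Alternatives were DESeq2, DESeq2-type size factors, upper quartile, library sizes alone, TMM from protein-coding loci, a 1.5-fold cutoff, no filter, a minimum of 10 counts in each library, a prior count of 2 for the ratios, the replicate number as a block, and each library left out. On simulated data with 7971 loci and 200 changed by 1.5 on the log2 scale, 181 of the 198 changed loci in the test were called by edgeR, as were 5 unchanged ones. The simulated counts had the common dispersion at every locus and in both cell types, whereas the real aerial libraries varied more than the root libraries. The simulation therefore does not give the rate of false calls under that unequal spread.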

Additional observations from a re-analysis of the deposited data

How the results depend on the processing

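The number of ATG genes called in aerial cells was 14 with DESeq2, with DESeq2-type size factors, with TMM on protein-coding loci, without a filter and with at least 10 counts in every library, 16 with upper quartile normalization, 15 with library sizes alone and 13 with the replicate number as a block, where ATG36 lay under 2-fold (-0.97). It was 10 to 15 when a library was left out, with 6.25% to 9.98% of protein-coding loci called in aerial cells in these fits. The share of protein-coding loci called was 10.1% with upper quartile normalization and 8.73% with the block. In the other alternatives it was 8.45% to 9.31%. At a cutoff of 1.5-fold 29 were called in aerial cells, 1 in root cells and 10 companion genes in aerial cells, against 16.1% of protein-coding loci in aerial and 17.7% in root cells. ATG3, ATG7, ATG9, ATG14, ATG16, ATG17, ATG34 and ATG39 were called under all 14 alternatives fitted at the 2-fold cutoff.

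Without the fold cutoff, the number past the adjusted threshold in aerial cells ranged from 13 to 29 when a library was left out. The share of protein-coding loci ranged from 7.47% to 20.1%. The number was 13 without root replicate 1 (7.47% of protein-coding loci), 16 without root replicate 2 (8.18%) and 13 without root replicate 3 (7.87%). It was 23 with the replicate block (14.4%). The number past it in root cells was 0 with library sizes alone and 0 to 1 when a library was left out. Of the 30 single genes past the threshold, 17 lost it under at least 1 alternative, ATG1 with an adjusted p of up to 0.206. The median log2 fold change of the 36 ran from -0.86 to -0.75 when a library was left out. Upper quartile normalization moved the median of all loci to -0.09.

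With a library left out, the log2 fold change of ATG41 ran from -0.44 to 0.0078, reversed without root replicate 2. The difference in the log2 ratio ran from -0.022 to 0.75 for ATG32 to ATG33, reversed without aerial replicate 1, and from -0.084 to 0.21 for ATG39 to ATG40, reversed without aerial replicate 3 and, at -0.0066, without root replicate 2. The cause of these changes was not tested. The deviations of same-numbered libraries from their group means had correlations of -0.142, 0.140 and -0.0440. Those of differently numbered libraries ran from -0.300 to 0.361. With 3 libraries per group these values cannot show whether same-numbered libraries shared their plates. The fit with the replicate number as a block is therefore given as an alternative.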
